A study of Homo sapiens with 7 samples.

Results

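The genes of the AP-1 family were JUN, JUNB, JUND, FOS, FOSB, FOSL1, FOSL2, BATF, BATF3 and ATF3, which are 10 of the 20163 protein-coding genes annotated on GRCh37. They were taken by name, and all 10 were found in the annotation. Around each gene, peak summits were counted within the gene body and 5 kb to either side, and within 50 kb as a wider view. The data came from ChIP-seq in Kasumi-1 cells, an established myeloblast line from acute myeloid leukemia that carries the t(8;21) translocation and makes the AML1-ETO fusion protein. The growing cells received no treatment, and every library came from this line, so there was no group without the fusion. The lists covered trimethylated lysine 4 of histone H3 (H3K4me3), p300, N-CoR, AML1-ETO and AML1. The AML1 antibody sees the C-terminus of AML1, which the fusion lacks, and the AML1-ETO list was made with an antibody to ETO. The authors pooled 2 biological replicates per antibody before peak calling and deposited 1 list for each of the 5 antibodies, with positions and no peak height. Hence no spread between replicates can be given and no test was made. The lists hold no expression values, so the myeloblast label was not checked against marker genes.

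AP-1 is a transcription factor made of a pair of proteins that join through a leucine zipper and grip DNA with a neighbouring basic region. JUN proteins can pair with each other or with FOS, BATF and ATF proteins, whereas FOS proteins need a partner from another group. Several of these genes are immediate-early genes, which are switched on within minutes of a growth, cytokine or stress signal, and in myeloid cells AP-1 shares enhancers with AML1 and the ETS factor PU.1. N-CoR is a co-repressor that carries histone deacetylases, p300 is an acetyltransferase and co-activator, and H3K4me3 marks the starts of active or poised genes.

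The genome sequence under the sites is shown first for the genes whose binding patterns are described at length. A site is the stretch covered by overlapping summit windows, where a window extends from a summit by 50 bp in each direction. All sequences are from GRCh37, in the direction of transcription of the named gene, with annotated untranslated bases left out. Capitals mark matches, on either strand, to the Runx motif TGTGGT, the PU.1 motif GAGGAA, the ETS motif AGGAAG, the cyclic AMP response element TGACGTCA or the CArG box of serum response factor. The PU.1 and ETS motifs share 5 letters and can overlap. The first set shows 4 of the 7 sites where AML1 and AML1-ETO summits stood together, near FOS (chr14:75741619-75741761, + strand), at the start of BATF (chr14:75988739-75988811, + strand), beyond the 3′ end of BATF3 (chr1:212856739-212856882, - strand) and upstream of JUNB (chr19:12900945-12901172, + strand).
FOS: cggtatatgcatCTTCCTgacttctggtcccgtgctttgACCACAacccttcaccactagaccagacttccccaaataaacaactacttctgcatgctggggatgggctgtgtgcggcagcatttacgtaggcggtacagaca
BATF: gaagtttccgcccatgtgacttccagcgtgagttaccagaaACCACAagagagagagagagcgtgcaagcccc
BATF3: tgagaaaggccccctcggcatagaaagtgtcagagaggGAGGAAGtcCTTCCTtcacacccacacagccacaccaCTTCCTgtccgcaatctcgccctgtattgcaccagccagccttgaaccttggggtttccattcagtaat
JUNB: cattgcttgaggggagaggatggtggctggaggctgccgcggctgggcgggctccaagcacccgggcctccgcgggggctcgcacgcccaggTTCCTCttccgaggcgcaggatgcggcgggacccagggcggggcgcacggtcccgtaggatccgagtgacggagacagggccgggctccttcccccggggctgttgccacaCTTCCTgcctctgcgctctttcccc
The next set shows sites at gene starts that carried N-CoR, with AML1-ETO at FOSL2 (chr2:28615567-28615668, + strand) and without AML1 or AML1-ETO at FOSB (chr19:45970916-45971015, + strand) and JUN (chr1:59249919-59250018, - strand).
FOSL2: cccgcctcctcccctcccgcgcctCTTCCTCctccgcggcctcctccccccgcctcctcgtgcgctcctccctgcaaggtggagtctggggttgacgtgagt
FOSB: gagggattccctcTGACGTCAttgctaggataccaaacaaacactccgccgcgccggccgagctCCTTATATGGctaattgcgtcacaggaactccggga
JUN: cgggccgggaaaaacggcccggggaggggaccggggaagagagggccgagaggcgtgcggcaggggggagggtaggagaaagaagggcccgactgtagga
The FOS and BATF sites held the Runx motif, the BATF3, JUNB and FOSL2 sites held PU.1 and ETS motifs without it, the FOSB site held a cyclic AMP response element and a CArG box, and the JUN site held none of these motifs. Among the shared sites not printed, the part of the ATF3 site outside untranslated sequence held none of them either.

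Every AP-1 family gene had at least 1 summit of these proteins within 5 kb of its body, and each had H3K4me3 at a start. AML1-ETO was found at 7 of the 10 genes, against 41.3% of all protein-coding genes, and AML1 at 6, against 34.9%. N-CoR was found at 9 genes, where 26.7% of all genes had it, and p300 at 8, where 45.5% of all genes had it. H3K4me3 lay at all 10 genes and at 68.0% of all genes. The 3 genes without AML1 or AML1-ETO were JUN, JUND and FOSB, and a summit of either protein lay at 48.4% of all genes. The flanks contributed much of this, since within the gene bodies alone AML1 was found at 3 genes (23.0% of all genes), AML1-ETO at 4 (29.6%), N-CoR at 4 (18.1%), p300 at 6 (29.8%) and H3K4me3 at 10 (59.5%). No gene of the family lacked all 4 proteins, whereas 38.5% of all genes did. A gene absent from a list had no peak past the threshold of 1e-20, and weaker binding cannot be told from none.

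The regions held 15 AML1-ETO, 8 AML1, 15 N-CoR, 19 p300 and 21 H3K4me3 summits. The median per gene was 2 for H3K4me3, 1.5 for p300 and AML1-ETO and 1 for N-CoR and AML1, and over all genes it was 0 for each of the 4 proteins and 1 for H3K4me3. The AP-1 family genes are short, with a median body of 7.86 kb (1.83 to 55.4 kb) against 27.2 kb over all genes. Per kb of region, the family had a median of 0.231 summits of the 4 proteins together, and all genes had 0.0208. The 5 kb on each side is the same for every gene, so dividing by region length does not correct for gene length. No share among genes of similar length was computed. JUNB was the densest gene of the family, with 12 summits of the 4 proteins or 1.01 per kb, a density that 7 of the 20163 genes reached or passed, and 2.93% of all genes had at least 12 summits. FOSL1 came next with 10 summits and 0.540 per kb, and at least 10 summits were found at 4.52% of all genes. ATF3, the longest gene, had the lowest density at 0.0611 per kb, followed by JUN at 0.116 per kb.

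**Figure D1:**
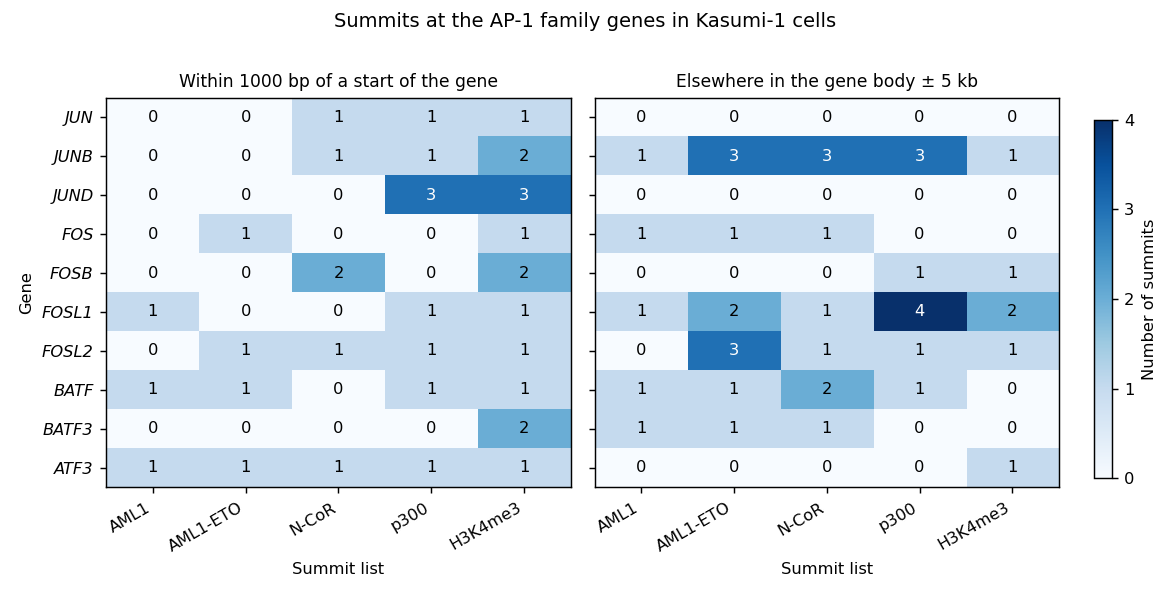
Number of summits (colour and digit) of each list (columns) at each AP-1 family gene (rows), within 1000 bp of an annotated start of the gene on the left and elsewhere in the gene body ± 5 kb on the right. AML1-ETO had 11 of its 15 summits away from starts, and H3K4me3 had 15 of its 21 at them, where the same rule over all genes gave 64.4% of AML1-ETO summits away from starts and 74.1% of H3K4me3 summits at them.

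Promoter summits, those within 1000 bp of any annotated start of the gene, were set against distal ones. AML1-ETO had 4 promoter and 11 distal summits, and 26.7% at promoters compares with 35.6% when the same rule was applied to every protein-coding gene and its summits. AML1 had 3 promoter and 5 distal summits (37.5% against 38.7% at promoters), N-CoR 6 and 9 (40% against 34.6%), p300 9 and 10 (47.4% against 64.3%) and H3K4me3 15 and 6 (71.4% against 74.1%). Leaving out summits nearer to another gene's start, a count added after the data were seen, left 14 of the 19 p300 summits. Each p300 summit left out was distal, and the promoter share over all genes is not given for that rule. A promoter summit of AML1 was found at 3 genes (18.6% of all genes), of AML1-ETO at 4 (23.3%), of N-CoR at 5 (13.3%), of p300 at 7 (37.0%) and of H3K4me3 at 10 (62.3%). Taking 5 kb to either side of the 5′ end instead, AML1 was found at 4 genes (19.7% of all genes), AML1-ETO at 5 (24.9%), N-CoR at 6 (14.3%), p300 at 6 (36.8%) and H3K4me3 at 10 (60.6%). The AML1-ETO promoters were those of FOS, FOSL2, BATF and ATF3. The p300 promoters were those of all genes but FOS, FOSB and BATF3, and each of the 7 also carried H3K4me3, as did 36.4% of all genes.

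**Figure D2:**
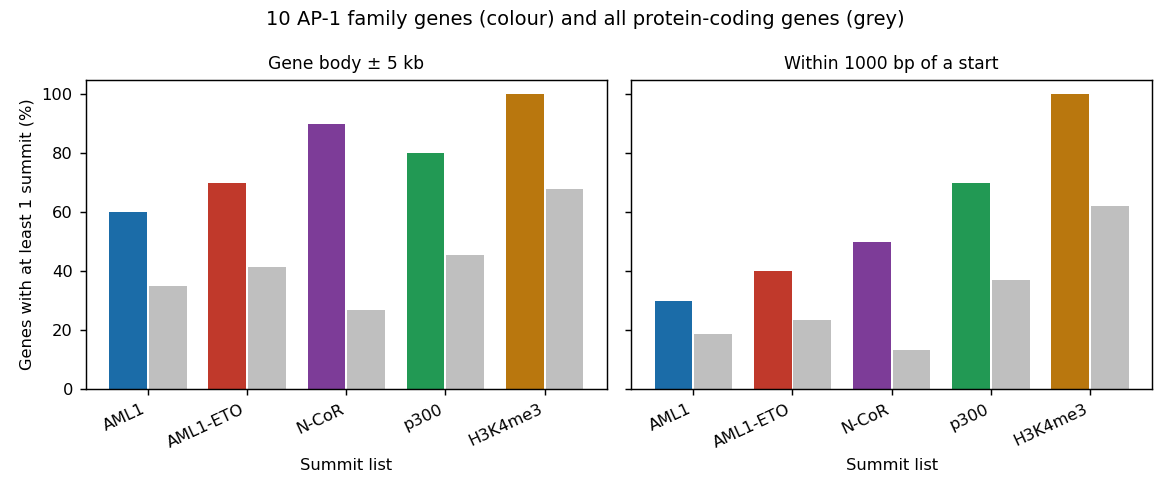
Percent of genes with at least 1 summit of each list, for the 10 AP-1 family genes (coloured bars) and all 20163 protein-coding genes (grey bars), in the gene body ± 5 kb (left) and within 1000 bp of an annotated start (right). Each coloured bar is higher than its grey bar, and with 10 genes each coloured bar moves in steps of 1 gene.

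JUN encodes an AP-1 subunit that can act as a homodimer or with any of the other groups. It had 0 AML1-ETO, 0 AML1, 1 N-CoR, 1 p300 and 1 H3K4me3 summits, all within 1000 bp of a start. Positions are given from the gene's 5′ end, with negative values upstream. N-CoR stood at -249 bp, p300 at +24 bp and H3K4me3 at +564 bp. The windows of N-CoR and p300 did not overlap, and the nearest AML1-ETO summit lay 31092 bp from the centre of the N-CoR site. JUN thus had a co-repressor and a co-activator at its start without either form of AML1 within 5 kb. An N-CoR summit at a start without AML1 or AML1-ETO there was also found at JUNB and FOSB, and at 2.37% of all genes. At JUNB, however, AML1-ETO stood just outside the 1000 bp limit, at -1228 bp.

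JUNB, whose product is often a weaker activator than JUN, carried 3 AML1-ETO, 1 AML1, 4 N-CoR, 4 p300 and 3 H3K4me3 summits around a body of 1830 bp. At least 3 AML1-ETO summits were found at 9.04% of all genes, at least 4 N-CoR summits at 1.87% and at least 4 p300 summits at 1.44%. The 3 AML1-ETO summits lay at -2720, -1228 and +2202 bp, so none was within 1000 bp of the start. Each had an N-CoR summit close by, at -2723, -1196 and +2174 bp. p300 accompanied the upstream pair, at -2696 and -1177 bp, and was not found at the downstream site. The single AML1 summit, at -1305 bp, joined the group near -1228 bp and made that site 1 of 3 in the family with all 4 proteins. At the start itself stood N-CoR at -117 bp and p300 at -9 bp, without AML1-ETO. H3K4me3 summits stood at -1948, -859 and +358 bp, within 1000 bp of the centre of each upstream site. The downstream site is nearer to a start of HOOK2, at -1091 bp from it, and all 6 sites of JUNB lie inside an annotated HOOK2 intron on the other strand, so these summits cannot be assigned to JUNB by position alone.

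JUND, the JUN gene that is widely active in resting cells, had neither AML1 nor AML1-ETO nor N-CoR. Its 3 p300 summits at -508, -26 and +1065 bp and its 3 H3K4me3 summits at -728, +464 and +1043 bp were all at its starts. JUND was the only gene of the family without N-CoR within 5 kb. The JUN genes therefore shared p300 and H3K4me3 at a start and differed in AML1-ETO, which among them was found at JUNB.

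FOS, the classical immediate-early partner of JUN, had 2 AML1-ETO, 1 AML1, 1 N-CoR, 0 p300 and 1 H3K4me3 summits. At its start stood AML1-ETO, at +20 bp, with H3K4me3 at +107 bp and no AML1, N-CoR or p300. FOS was the only gene of the family with AML1-ETO as the only one of the 4 proteins at a promoter site. The upstream site shown above joined AML1 at -3860 bp, N-CoR at -3818 bp and AML1-ETO at -3817 bp, in intergenic sequence. N-CoR and AML1-ETO were 1 bp apart there, the nearest H3K4me3 summit was 3946 bp from the site's centre and the nearest p300 summit 26985 bp. FOS thus had the fusion with AML1 and the co-repressor upstream and the fusion without the other proteins at the start.

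FOSB, a second immediate-early FOS gene, had N-CoR at -287 and +1299 bp, with H3K4me3 at -526 and +1624 bp. Both N-CoR sites lay within 1000 bp of an annotated start, and AML1 and AML1-ETO were absent. The site at -287 bp is the FOSB sequence shown above. Its cyclic AMP response element and CArG box were the only matches to these motifs in the 15 N-CoR windows of the family, and 0.520% and 0.590% of all N-CoR windows held them. The single p300 summit, at +10617 bp, stood in a site whose centre is 217 bp from a start of ERCC1, a DNA repair gene whose long transcripts run over FOSB on the other strand.

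FOSL1, which encodes the Fos-related antigen FRA-1, had 2 AML1-ETO, 2 AML1, 1 N-CoR, 5 p300 and 3 H3K4me3 summits, and 5 or more p300 summits were found at 0.585% of all genes. Its own start carried AML1 at +96 bp, p300 at +199 bp and H3K4me3 at +739 bp, and an AML1-ETO summit stood alone at -2740 bp. The site of all 4 proteins lay beyond the 3′ end, with AML1-ETO at +12018, AML1 at +12030, N-CoR at +12034 and p300 at +11942 bp. Its centre is at -53 bp from a start of FIBP, and the p300 summit at +9789 bp is in a site 110 bp into CCDC85B, so that 4 of the 5 p300 summits of FOSL1 were nearer to another gene's start. Leaving out summits nearer to another gene, a count added after the data were seen, N-CoR was found at 8 genes of the family in place of 9 and p300 at 7 in place of 8. The same count over all protein-coding genes gave 21.0% for N-CoR and 35.6% for p300.

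FOSL2, which encodes FRA-2, had the most AML1-ETO summits of the family, 4, a number reached by 4.79% of all genes. They lay at -1846, +302, +14488 and +16970 bp, and no AML1 summit lay within 5 kb of the gene. The first overlapped p300 at -1869 bp, the second overlapped N-CoR at +326 bp, and the remaining pair, in an intron, stood alone. N-CoR was also at +18049 bp, and p300 was at +445 bp at the start. H3K4me3 at -1703 and +917 bp lay within 1000 bp of the first pair of sites, whereas the intronic summits were at least 13570 bp from the nearest H3K4me3 summit. At FOSL2 the fusion therefore met p300 at one site, N-CoR at another and neither at the intronic sites.

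**Figure D3:**
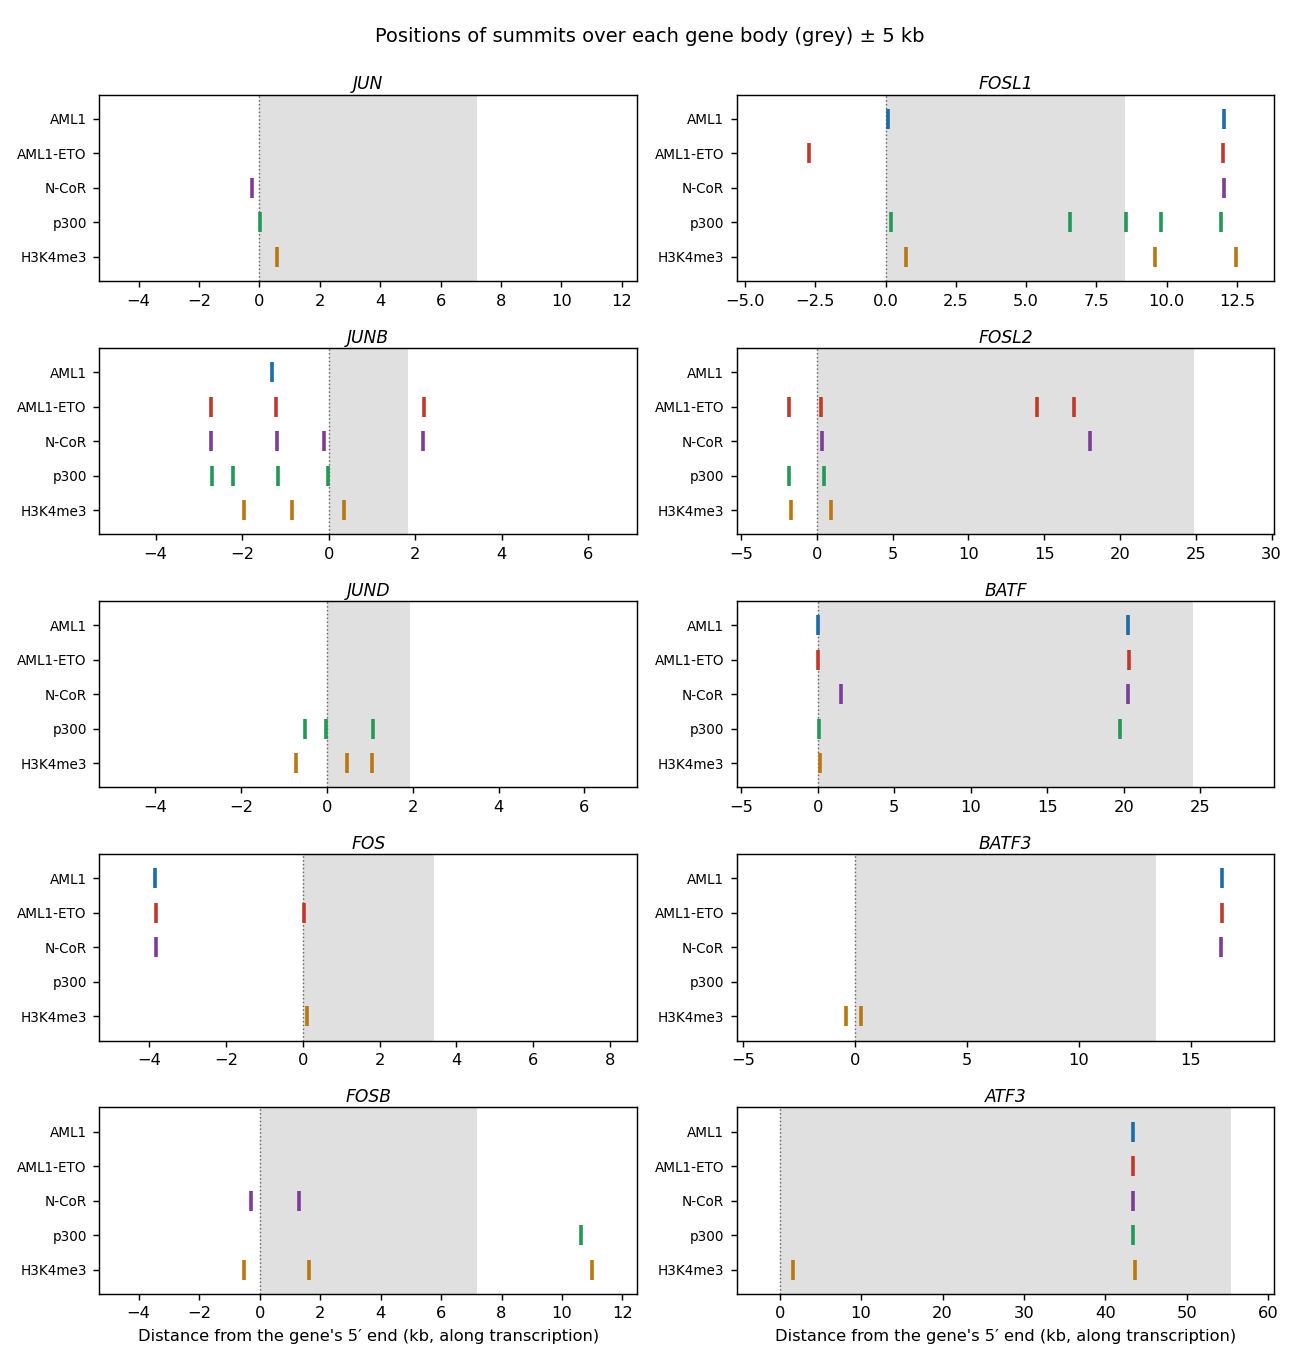
Position of each summit (coloured ticks, 1 row per list) along each AP-1 family gene, in kb from the gene's 5′ end in the direction of transcription, with the gene body in grey and 5 kb on either side. The AML1-ETO summits of JUNB lie outside its body, those of FOSL2 run from -1846 to +16970 bp, and JUN, JUND and FOSB have none.

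BATF and BATF3 encode short AP-1 proteins that lack an activation domain and pair with JUN proteins, often together with interferon regulatory factors. BATF had 2 AML1-ETO, 2 AML1, 2 N-CoR, 2 p300 and 1 H3K4me3 summits. At its start AML1 at -1 bp, AML1-ETO at -9 bp and p300 at +64 bp formed 1 site, with H3K4me3 at +181 bp and no N-CoR. In an intron, AML1 at +20307, AML1-ETO at +20319 and N-CoR at +20287 bp formed a second site with no overlapping p300, 20121 bp from the nearest H3K4me3 summit. An N-CoR summit at +1495 bp and a p300 summit at +19776 bp stood alone. BATF so paired AML1 and the fusion with p300 at the start and with N-CoR in the intron. In windows of 25 bp to either side, p300 at the start would not overlap AML1 or AML1-ETO. BATF3 had no protein at its start, only H3K4me3 at -420 and +269 bp. Its single site, of AML1 at +16393, AML1-ETO at +16381 and N-CoR at +16349 bp, lay past its 3′ end, and the nearest p300 summit was 46688 bp away.

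ATF3, a stress-induced gene whose product can repress as a homodimer, is annotated over 55.4 kb because of long transcripts. Its site at chr1:212781974-212782162 lay far inside this span, with its centre at -35 bp from an inner annotated start, and it held AML1 at +43365, AML1-ETO at +43400, N-CoR at +43348 and p300 at +43437 bp, with H3K4me3 at +43701 bp. This was the only promoter site of the family with all 4 proteins. A second H3K4me3 summit was at +1610 bp. A locus of all 4 proteins was found at 3 genes of the family, JUNB, FOSL1 and ATF3, and at 8.20% of all genes. In the JUNB locus the AML1 window shared no base with the N-CoR or p300 window. In windows of 25 bp to either side, p300 would not overlap AML1 or AML1-ETO at the JUNB and FOSL1 loci. The FOSL1 locus is next to a start of FIBP.

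Merging windows of the 4 proteins gave 35 sites, 16 at promoters and 19 distal. A single protein was found at 24 sites, or 68.6%, 2 proteins at 3 (8.57%), 3 proteins at 5 (14.3%) and all 4 at 3 (8.57%). The same rule applied to every protein-coding gene gave 60.6%, 20.1%, 12.1% and 7.20% of the sites, a site near several genes being counted for each. The single-protein sites were mostly of p300, 7 at promoters and 6 distal, or of N-CoR, 4 at promoters and 2 distal. Which protein stood alone was not compared with the sites of all genes, so this make-up cannot be called particular to the family. The combination of AML1, AML1-ETO and N-CoR without p300 was found at 3 distal sites, near FOS, BATF and BATF3, and at no promoter site. It made up 10.9% of the distal and 3.39% of the promoter sites of all protein-coding genes. AML1 and AML1-ETO shared 7 sites, with their summits a median of 12 bp apart (8 to 77 bp). H3K4me3 lay within 1000 bp of all 16 promoter sites and of 7 of the 19 distal sites, or 36.8%, against 86.8% and 28.2% of the promoter and distal sites of all protein-coding genes.

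**Figure D4:**
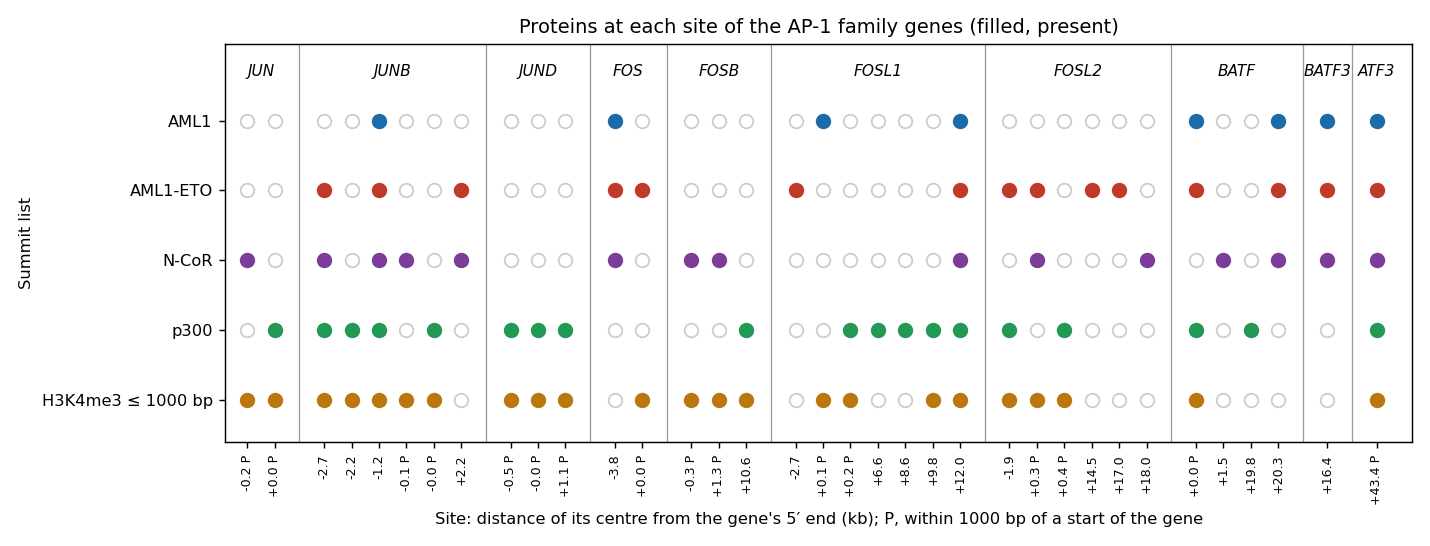
The 35 sites of the AP-1 family genes (columns, grouped by gene and labelled with the distance of the site's centre from the 5′ end in kb; P marks a promoter site), with a filled circle where a list (rows) is present. All 16 promoter sites have H3K4me3, and the 3 columns filled for all 4 proteins belong to JUNB, FOSL1 and ATF3.

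AML1 and AML1-ETO windows merged into 16 loci near the family and 21424 in the genome. Both proteins were in 7 of the 16, or 43.75%, close to the 39.0% of all loci. N-CoR overlapped 9 of the 16, or 56.3% (exact Clopper-Pearson 95% interval 29.9 to 80.2%, counting error only), and 35.7% of all loci. p300 overlapped 6, or 37.5% (15.2 to 64.6%), against 21.6% of all loci. This count was 3 of 17 loci, or 17.6% (3.799 to 43.4%), against 16.3% of all when windows reached 25 bp from the summit, and 8 of 16, or 50% (24.7 to 75.3%), against 25.9% when they reached 100 bp. At the windows used here 5 loci overlapped neither, or 31.3% (11.02 to 58.7%), against 57.2%. H3K4me3 was within 1000 bp of the centre of 9 loci, or 56.3% (29.9 to 80.2%), and of 30.4% of all loci. Over these pooled loci each genome-wide share lay inside the interval of the family's share. The loci are not independent draws, since JUNB holds 3 and FOSL2 holds 4 of them, and no test was made. Of the 11 distal loci 7 overlapped N-CoR (30.8 to 89.1%), 4 overlapped p300 (10.9 to 69.2%) and 4 had H3K4me3 (10.9 to 69.2%). Classed in the same way by each gene's own starts, the distal loci of all protein-coding genes overlapped N-CoR in 37.1% and p300 in 19.8%, and 19.7% had H3K4me3. One of the family's distal loci with H3K4me3, that of FOSL1 next to the FIBP start, is distal only to its own gene. Without it 3 of 10 had H3K4me3 (6.67 to 65.2%), against 9.19% of all loci more than 1000 bp from any coding start. The interval for all 11 lies above this last share, but the classes differ. Of the 5 promoter loci 2 overlapped N-CoR, 2 overlapped p300 and all 5 had H3K4me3, and the shares over the promoter loci of all protein-coding genes were 27.8%, 33.3% and 79.5%. An AML1-ETO locus that overlapped N-CoR was found at 7 genes, all those with AML1-ETO, and at 19.3% of all genes. FOSL1 was counted only through the locus next to the FIBP start, as its AML1-ETO summit at -2740 bp overlapped neither co-regulator.

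The 4 proteins' windows were searched for the motifs given above and for the AP-1 motif TGANTCA, on both strands. The Runx motif lay in 2 of 8 AML1 windows of the family, near FOS and at the BATF start, and in 40.6% of all AML1 windows. It lay in 1 of 15 AML1-ETO windows, at the BATF start, and in 31.3% of all AML1-ETO windows. N-CoR windows held it in 0 of 15 (19.5% of all), and p300 windows in 1 of 19 (6.66% of all). The ETS motif was in 3 AML1, 3 AML1-ETO, 7 N-CoR and 3 p300 windows, against 37.7%, 37.5%, 46.2% and 25.1% of all windows of these lists. PU.1 letters were in 1, 3, 3 and 2 windows, against 25.6%, 26.0%, 30.8% and 17.7%. Some of these directions turned in windows of 100 bp to either side, where ETS letters were in 9 of 15 AML1-ETO windows (53.0% of all) and in 5 of 8 AML1 windows (53.4%), and PU.1 letters in 4 of 8 AML1 windows (39.6%). The AP-1 motif was in 0 of 8 AML1, 0 of 15 AML1-ETO and 0 of 15 N-CoR windows. Of all windows of these lists, 5.02%, 5.19% and 7.29% held it, so counts of 0 are close to these low shares. It was in 2 of 19 p300 windows, those at the starts of FOSL1 and FOSL2, where 2.73% of all p300 windows held it. The wider windows put it in 1 of 8 AML1 windows, against 9.33% of all. They also put it in 1 of 15 AML1-ETO windows (9.59% of all) and 1 of 15 N-CoR windows (12.5%). In the promoters, taken as 250 bases before to 50 after the 5′ end, the Runx motif was found at BATF among the 10 genes. It was found at 12.5% of 20140 promoters. PU.1 letters were found at FOSL1, FOSL2 and BATF3 (27.3% of all promoters), and ETS letters at JUNB and FOSL1 (32.7%). The cyclic AMP response element was found at JUND and at 2.29% of all. The element and the CArG box of FOSB shown above lie upstream of the promoter interval, so they were not counted here. The AP-1 motif was in none of the 10 and in 6.37% of all promoters. For ATF3 this promoter is far from its bound inner start.

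Within 50 kb all 10 genes had summits in all 5 lists, where AML1 was found at 59.8%, AML1-ETO at 66.5%, N-CoR at 48.7%, p300 at 64.4% and H3K4me3 at 80.9% of all genes. These wider regions hold other genes, and those of BATF3 and ATF3, which lie 65.64 kb apart, overlap. Of their 103 sites, 54 were nearest to a start of an AP-1 family gene, and 25 of these lay beyond the 5 kb regions. AML1-ETO was at 18 of the 25, N-CoR at 14, AML1 at 9 and p300 at 4. Over the 4344 sites placed in the same way around all protein-coding genes, AML1-ETO was at 72.2%, N-CoR at 41.1%, AML1 at 44.7% and p300 at 25.6%. The combination of AML1, AML1-ETO and N-CoR without p300 was found at 8 of the 25 and at 12.9% of the 4344, and H3K4me3 lay within 1000 bp of 7 and of 18.6%. Of the 8, 4 belonged to FOSL2.

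FOSL2 had the most of these upstream sites. AML1, AML1-ETO and N-CoR stood together at -33.044, -25.515, -13.271 and -10.484 kb, and AML1-ETO alone at -31.852 and -13.898 kb. None of the 6 sites held p300, and the nearest H3K4me3 summit was 8781 to 31341 bp away. FOSL2 therefore had AML1 upstream although none lay within 5 kb. FOS had a site of AML1, AML1-ETO and N-CoR at -19.699 kb, 269 bp from H3K4me3, with AML1-ETO alone at -31.061 and -29.171 kb and N-CoR alone at -48.019 kb. Downstream of FOS stood N-CoR at 7.65 and 18.988 kb from the nearest FOS start and N-CoR with p300 at 21.796 kb, without AML1-ETO.

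JUN, which had no AML1-ETO within 5 kb, had a pair of sites near the noncoding gene LINC01135, nearest to JUN among coding starts. One held AML1-ETO, N-CoR and p300 at -32.382 kb (chr1:59282035-59282169), 209 bp from H3K4me3, and the other AML1, AML1-ETO and N-CoR at -31.321 kb (chr1:59280974-59281109), 852 bp from H3K4me3. JUND had p300 alone at -11.429 kb, 560 bp from H3K4me3, the set of AML1, AML1-ETO and N-CoR at -10.107 kb, 762 bp from H3K4me3, and AML1-ETO alone at -8.928 kb. JUNB added AML1, AML1-ETO and N-CoR at -5.088 kb, just outside its 5 kb region, and AML1-ETO alone at -6.204 and -5.625 kb. BATF had AML1 with AML1-ETO at -25.013 kb and AML1-ETO alone at -7.24 kb, and ATF3 had N-CoR at -6.333 kb and p300 at -6.049 kb, 258 and 542 bp from H3K4me3. FOSB differed, since 10 AML1-ETO summits lay within 50 kb and 0 of them had FOSB as the nearest coding gene. They were nearest to ERCC1 or to VASP, an actin regulator.

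**Figure D5:**
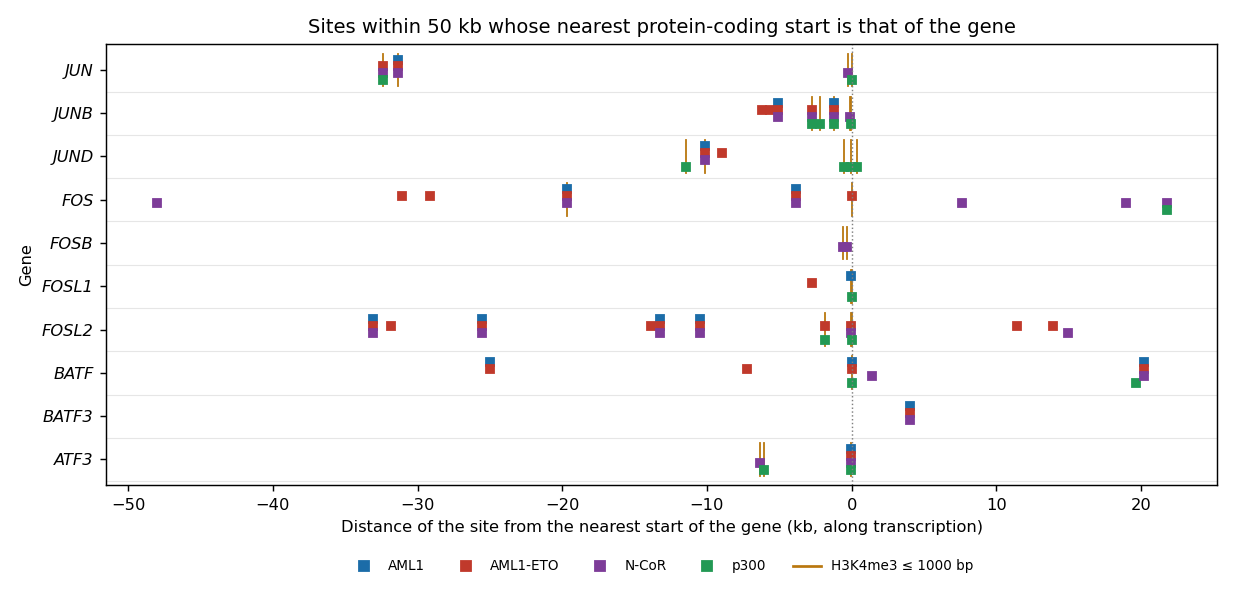
Sites within 50 kb whose nearest protein-coding start is that of the AP-1 family gene in the row, by distance in kb from that start, with squares coloured by protein and a vertical line where H3K4me3 lies within 1000 bp. FOSL2 shows 6 sites more than 5 kb upstream with AML1-ETO and no p300, and FOSB has no site outside its starts.

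Lists of related genes were counted in the same way, without scaling for gene length. Among 23 other basic leucine zipper genes that can partner AP-1 or one another, AML1 was found at 12 (34.9% of all genes), AML1-ETO at 14 (41.3%), N-CoR at 11 (26.7%), p300 at 15 (45.5%) and H3K4me3 at 20 (68.0%). An AML1-ETO summit overlapping N-CoR was found at 5 of them, JDP2, CREM, MAFG, NFE2 and NFE2L2. It was found at 7 of the 10 AP-1 family genes and at 19.3% of all genes. The 7 include FOSL1, through the locus next to the FIBP start. JDP2, which represses AP-1 targets, had 3 AML1-ETO summits and 1 N-CoR summit, and NFE2, an erythroid and megakaryocyte factor, had 2 and 1. Among 21 other immediate-early genes and serum response factors, AML1 was found at 14, AML1-ETO at 18, N-CoR at 14, p300 at 15 and H3K4me3 at 20. AML1-ETO overlapped N-CoR at 11 of these, IER2, IER3, IER5, KLF2, KLF10, NR4A2, NR4A3, DUSP1, ZFP36, ELK3 and MRTFA. MRTFA, a co-activator of serum response factor, had 7 AML1-ETO and 4 N-CoR summits, ELK3, a ternary complex factor, had 6 and 5, and IER2 had 3 and 5. An N-CoR summit at a start without AML1 or AML1-ETO there was the pattern of JUN, JUNB and FOSB. It was found at 2 of the 23 genes, 2 of the 21 genes and 2.37% of all genes. JUNB belongs to it only by the 1000 bp limit, since its nearest AML1-ETO summit was at -1228 bp.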

How the data were processed

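The authors aligned reads to GRCh37 (hg19) with Bowtie 0.12.8, merged both replicates per antibody and then ran MACS2 2.0.10.20131216 at p < 1e-20. The deposited lists hold positions only, as 100 bp intervals around a summit, with 19632 H3K4me3, 11020 p300, 10004 N-CoR, 18087 AML1-ETO and 11692 AML1 summits. They give no count, signal or p-value per peak, so the depth behind a summit is unknown here. Peak names in the N-CoR, p300 and H3K4me3 lists carry the prefix of another antibody, and each list was taken as the antibody of its record. The number of summits in each of these lists equals the number of peaks that the paper's supplement gives for that antibody at this threshold. Input and H3K27me3 were not analysed here.

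Genes came from GENCODE release 44 lifted to GRCh37, with the body spanning all annotated transcripts. Windows overlapped when they shared at least 1 bp. Distances to other genes were taken to the nearest protein-coding start. The percent of all protein-coding genes with a summit was computed by the same rule. Motifs were exact matches, and the mitochondrial chromosome was left out of motif searches. All 10 genes were named, with JUN, FOS and those with the most AML1-ETO summits described most fully, and from the lists of related genes those with AML1-ETO overlapping N-CoR were named. The genes, lists and motifs were chosen with earlier results of these data known. Sites, less their annotated untranslated bases, are printed in place of single windows, and which ones was decided after the data were seen. Alternatives were other margins, promoter and H3K4me3 distances, window widths and annotations, and, added after the data were seen, counting only summits nearest to the gene's own start. Counting was tested on simulated data, where 300 of 300 planted overlaps were found. Python 3.11.15, numpy 2.4.6, SciPy 1.17.1 and matplotlib 3.10.9 were used.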

Additional observations from a re-analysis of the deposited data

How the results depend on the processing

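The counts rest on 1 list per antibody, so they have no error between replicates, and no paired analysis was possible because the replicates were pooled before peak calling. Of 110 values computed under alternatives for 44 results, 79 stayed within 1.5 times the value reported and 31 moved further. Counting within the gene body alone (margin 0 kb) gave AML1 at 3, AML1-ETO at 4 and N-CoR at 4 genes of the family, with 12 H3K4me3, 8 p300, 6 N-CoR, 6 AML1-ETO and 3 AML1 summits, and a margin of 2 kb gave 5 AML1 summits. Over all annotated genes, noncoding ones included, the share with a summit was 33.3% for H3K4me3, 22% for p300 and AML1-ETO, 13.7% for N-CoR and 17.8% for AML1. Within 5 kb of the 5′ end it was 19.7%, 24.9% and 14.3% of coding genes for AML1, AML1-ETO and N-CoR, where 4, 5 and 6 genes of the family had a summit. Windows of 25 bp to either side left 3 loci that overlapped p300 (16.3% of all loci at this width), and 9 that overlapped N-CoR (31.0%). Motif windows of 100 bp to either side gave PU.1 in 4, ETS in 5 and AP-1 in 1 of the 8 AML1 windows (39.6%, 53.4% and 9.33% of all AML1 windows). They gave Runx in 2, PU.1 in 5, ETS in 9 and AP-1 in 1 of the 15 AML1-ETO windows (39.9%, 39.9%, 53.0% and 9.59%), Runx in 2, PU.1 in 6 and AP-1 in 1 of the 15 N-CoR windows (29.1%, 45.8% and 12.5%) and Runx in 2, PU.1 in 5 and ETS in 6 of the 19 p300 windows (11.7%, 30.2% and 38.8%). Wider windows add sequence, and the cause of the other changes was not tested. Counting only summits nearest to the gene's own start, added after the data were seen, gave 18 H3K4me3, 14 p300, 13 N-CoR, 13 AML1-ETO and 7 AML1 summits. A stricter peak threshold could not be tried without peak scores.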
